A study of Mus musculus with 2 samples.

Results

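The interleukin 6 and oncostatin M system was followed in dissociated lung cells through 9 genes, taken by symbol from the 32883 genes of the feature table: the ligands Il6, Osm and Lif, the receptor chains Il6r, Il6st, Osmr and Lifr, the transcription factor Stat3 and the inhibitor Socs3. Each symbol matched a single row (ENSRNOG00000010278 for Il6, ENSRNOG00000024390 for Osm, ENSRNOG00000007002 for Lif, ENSRNOG00000020811 for Il6r, ENSRNOG00000013963 for Il6st, ENSRNOG00000033192 for Osmr, ENSRNOG00000011696 for Lifr, ENSRNOG00000019742 for Stat3 and ENSRNOG00000002946 for Socs3). Lung cells were sequenced singly in droplets (10x Genomics) as 2 libraries, both labelled wild type: 1 from 6 hours after hepatic ischemia-reperfusion (HIR), a halt and return of blood flow through the liver, and 1 after sham surgery. The series is about how lung immune cells and their interactions differ after HIR. The labels give neither the strain, the age nor the number of animals behind a library. They name the mouse, while all 32883 identifiers belong to the rat, so symbols were read as rat symbols and no coordinates or sequences were used. As each group was 1 library, no test was made. A ratio is the HIR level over the sham level. Its 95% interval holds counting error only, not the variation between cells or animals.

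The pathway works through a shared receptor chain. Interleukin 6, oncostatin M and leukemia inhibitory factor each use a further chain (IL6R, OSMR or LIFR), and these complexes signal through gp130, the product of Il6st. Interleukin 6 can also bind a soluble form of its receptor, shed mainly by leukocytes, and so reach cells that make gp130 but little IL6R, such as endothelium. Receptor engagement activates Janus kinases and STAT3, and STAT3 induces SOCS3, which shuts the receptor off. In the lung the pathway is known from acute injury, including injury that starts in a distant organ, where it is tied to leukocyte recruitment, endothelial activation and acute phase gene expression.

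Counts were UMIs, molecular tags that let each captured transcript be counted once. The HIR library held 50801778 UMIs over 9499 barcodes and the sham library 59566745 UMIs over 10719 barcodes, with 24 barcode sequences in common. After filtering, 7921 HIR cells and 8571 sham cells remained and fell into 28 classes, of which 23 were named from marker genes and carry the suffix -like. Levels were compared in the 18 classes that held 100 or more cells in each library, 17 named ones and cluster 1, a stromal cluster that missed the naming rule. Levels are CPM (UMIs of a gene per 1000000 UMIs of the class). The tissue label held up against defining genes: over all kept cells, the HIR library had 15693 CPM of the surfactant gene Sftpc and 374 CPM of the alveolar type 1 gene Ager, the sham library 18847 and 390 CPM, and the liver gene Alb had no UMI in either. Neutrophil-like cells made up 16.1% of the HIR cells and 4.28% of the sham cells, and classical monocyte-like cells 4.41% and 1.82%. These shares are of captured cells, and for a sum over all cells more cells of a type and more RNA per cell cannot be told apart.

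The summed level over all cells and the level within classes gave different pictures for the ligands. Over all kept cells Osm, which encodes oncostatin M, had 225 CPM in the HIR library (9279 UMIs) and 73.0 CPM in the sham library (3379 UMIs), a ratio of 3.08 (95% interval 2.96 to 3.21). When each class kept its HIR level but took its sham share of the UMIs, a calculation added after the data were seen, the HIR level became 72.1 CPM and the ratio 0.987. For Il6, the ligand gene named for interleukin 6, the HIR library had 12.2 CPM (504 UMIs) and the sham library 1.58 CPM (73 UMIs), a ratio of 7.75 (6.05 to 10.0). At the sham shares Il6 was at 5.02 CPM, a ratio of 3.18. So the excess of Osm went with the larger share of the classes that make it, while Il6 was also higher within a class.

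Il6 was concentrated in classical monocyte-like cells of the HIR library. Classical monocytes are blood monocytes that enter inflamed tissue. They had 98.5 CPM (377 UMIs) in the HIR library and 5.68 CPM (7 UMIs) in the sham library, a ratio of 17.3 (8.33 to 43.4). In the HIR library 93 of 349 cells (26.6%) held at least 1 Il6 UMI, against 5 of 156 (3.21%) in the sham library. Median depths were 10601 and 7576.5 UMIs per cell, and after every cell was thinned to 1000 UMIs the shares were 8.05% and 0.641%. B cell-like cells, the class set as background for Il6, had 0.570% positive cells in the HIR library and 1.03% in the sham library, at median depths of 2473.5 and 2150.5 UMIs. After thinning the B cell-like shares were 0.193% and 0.406%, against 8.05% and 0.641% in classical monocyte-like cells. The sham monocyte share is thus close to the thinned background, while the HIR share is not.

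The Il6 signal in HIR classical monocyte-like cells was uneven from cell to cell. Among the 93 positive cells, 35 held 1 Il6 UMI, 29 held 2 to 4, 22 held 5 to 9 and 7 held 10 or more, and the highest held 31. The 10 highest cells carried 37.9% of the class's Il6 UMIs. Among all genes with at least 20 CPM in this class in either library, Il6 had the 8th highest log2 ratio of 4633. Neutrophil markers moved with it: the 7 genes of the neutrophil list summed to 26984 CPM in these cells in the HIR library and 1868 CPM in the sham library. S100a8 alone, an alarmin subunit that monocytes can also make, had 16616 and 1223 CPM. The decoy receptor gene Il1r2 had 577 UMIs in the HIR class and 2 in the sham class, the collagenase gene Mmp8 148 and 1, and the chemokine receptor gene Cxcr2 49 and 1. The granule protease gene Mmp9 had 1 UMI in the HIR class and none in the sham class. The part of these markers in the Il6 result was not tested. The neutrophil-like class of the HIR library had 20.8 CPM of Il6.

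**Figure D1:**
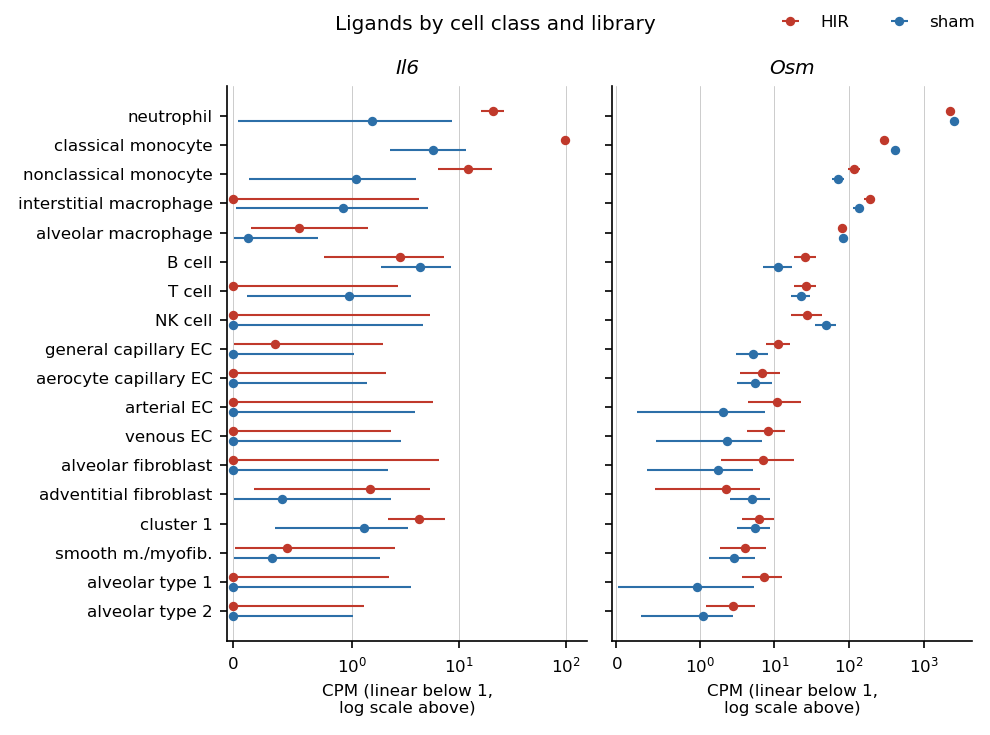
Levels of Il6 and Osm (CPM, linear below 1 and logarithmic above) in the 18 cell classes, HIR above sham; points are the class level and lines the 95% counting interval. Il6 stands out in HIR classical monocyte cells at 98.5 CPM against 5.68 CPM in sham, while Osm is led by neutrophils in both libraries. EC stands for endothelium.

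Other classes held less Il6. Neutrophil-like cells had 20.8 CPM in the HIR library (66 UMIs in 24 of 1276 cells) and 1.53 CPM in the sham library (1 UMI in 367 cells), with an interval of the ratio as wide as 2.35 to 544; the ratio of 13.6 was 5.18 under the stricter filter on cells and 5.74 with each cell assigned alone. Of the 66 HIR UMIs, 56 lay in cluster 5, the neutrophil cluster led by granule genes such as Camp, Ngp and Mmp8. Classical monocyte markers summed to 464 CPM in HIR neutrophil-like cells and 120 CPM in sham ones, nearly all of it Plac8, and their part was not tested. Nonclassical monocyte-like cells, the patrolling monocytes of the vessel wall, had 13 Il6 UMIs in the HIR library and 2 in the sham library. Aerocyte capillary, arterial and venous endothelium-like cells, NK cell-like cells, alveolar fibroblast-like cells and both alveolar epithelium-like classes had no Il6 UMI in either library.

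In the sham library most Il6 UMIs lay in a rare cluster. Cluster 25 numbered 44 HIR cells and 77 sham cells, under the minimum for a ratio, and had 69.7 CPM of Il6 (21 UMIs in 9 cells) in the HIR library and 71.9 CPM (45 UMIs in 17 cells) in the sham library. It held 4.17% of all HIR Il6 UMIs and 61.6% of all sham Il6 UMIs, while classical monocyte-like cells held 74.8% of the HIR and 9.59% of the sham UMIs. The naming rule called it basophil or mast cell-like, from leading genes such as the mast cell proteases Mcpt8l3, Mcpt1 and Cma1, but the plasma cell list scored nearly as high (2.29 against 2.44) and Mzb1 and Ighm were also among its 10 leading genes. The 6 basophil or mast cell markers in the feature table summed to 63.0 CPM in the HIR library, with a UMI in 1 of 44 cells, and to 909 CPM in the sham library, with a UMI in 13 of 77 cells. Of the cells with an Il6 UMI, none of 9 HIR cells and 2 of 17 sham cells had a UMI of these markers. The data therefore go against the name for the cells that held Il6, and the cluster is called by its number. The sham UMIs were also uneven, with 84.4% in 10 cells and 11 in the highest.

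Osm was a gene of neutrophils and, at lower levels, of monocytes and macrophages. In the HIR library the order was neutrophil-like (2193 CPM), classical monocyte-like (289), interstitial macrophage-like (187), nonclassical monocyte-like (117) and alveolar macrophage-like cells (80.2), with no overlap of neighbouring intervals. In the sham library the order was neutrophil-like (2473 CPM), classical monocyte-like (404), interstitial macrophage-like (135), alveolar macrophage-like (83.4) and nonclassical monocyte-like cells (71.2), and only the last pair overlapped. Neutrophils held 75.1% of the HIR Osm UMIs and 47.8% of the sham Osm UMIs. At least 1 Osm UMI was found in 77.0% of HIR and 78.5% of sham neutrophil-like cells, and in 65.6% and 72.1% after thinning. General capillary endothelium-like cells, the background class for Osm, had 2.72% and 1.46% positive cells at median depths of 2315.5 and 2594.5 UMIs, beside summed neutrophil markers of 1109 and 58.8 CPM.

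The Osm level in neutrophil-like cells, in CPM, did not have a stable direction. Over the class the ratio was 0.887 (0.840 to 0.936), but it was 1.04 when the median ratio of all genes in the class was set to 1. That median lay 0.22 below 0 on the log2 scale in neutrophil-like cells, and within 0.06 of 0 in the other 17 classes. The neutrophil marker list took 357813 CPM of the HIR class and 240291 CPM of the sham class, and its part in the scaling was not tested. Within cluster 4, the larger sham cluster (594 HIR and 311 sham cells), Osm had 2600 CPM in the HIR library and 2975 CPM in the sham library, a ratio of 0.874 (0.816 to 0.937). Within cluster 5 (682 HIR and 56 sham cells) it had 2025 and 1491 CPM, a ratio of 1.36 (1.21 to 1.52). The class value therefore joins clusters that differed in direction and in their weight between libraries.

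Monocytes and macrophages differed among themselves in Osm. Classical monocyte-like cells had a lower level in the HIR library, with a ratio of 0.716 (0.643 to 0.797), in the same class in which Il6 was 17.3-fold higher. Interstitial macrophage-like cells, which lie in the lung tissue rather than the airspace, had a ratio of 1.39 (1.10 to 1.75). Alveolar macrophage-like cells, the resident phagocytes of the airspace, had 80.2 CPM in the HIR library and 83.4 CPM in the sham library, with an interval of the ratio (0.858 to 1.08) that held 1. In nonclassical monocyte-like cells the ratio was 1.64 (1.28 to 2.12), which was between 0.757 and 0.991 under 4 of the other ways to filter or assign cells.

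Lif, the gene of leukemia inhibitory factor, was nearly undetected: 9 UMIs in the HIR library and 12 in the sham library, each in a different cell. No ratio was made for it. Of the other ligands of the family, 7 of 8 listed genes were in the feature table, and few reached 20 CPM anywhere.

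**Figure D2:**
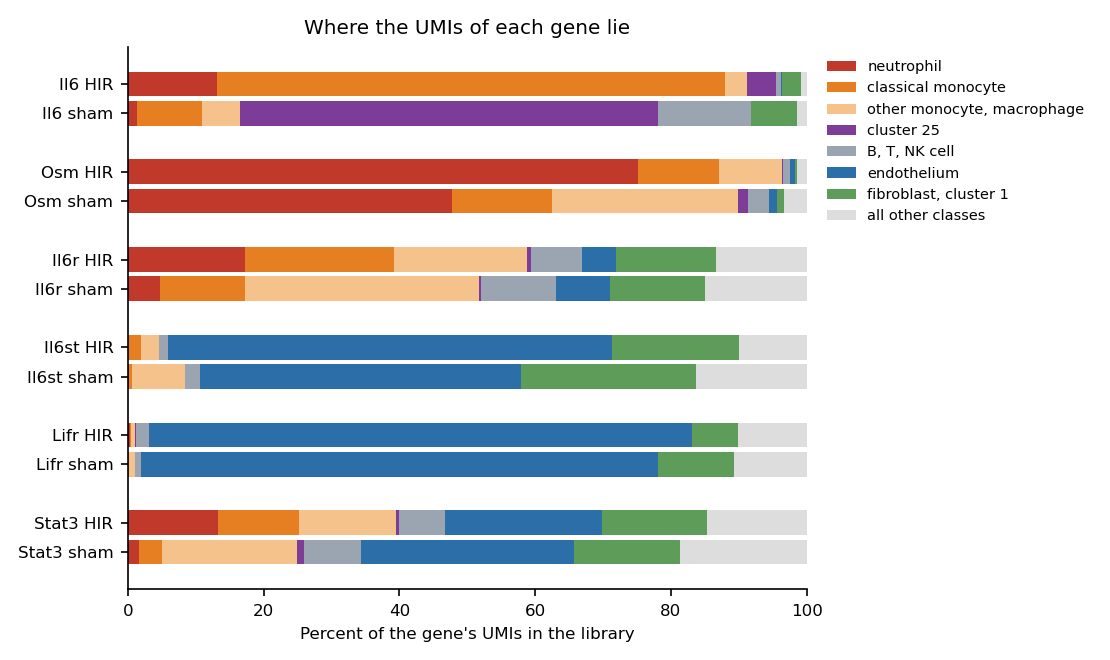
Share of each gene's UMIs (percent of the library's kept cells) by cell class, with the HIR bar above the sham bar for each of 6 genes. Classical monocytes held 74.8% of HIR Il6 UMIs and cluster 25 held 61.6% of sham Il6 UMIs; endothelium held 65.4% of HIR and 47.4% of sham Il6st UMIs and 80.0% of HIR and 76.2% of sham Lifr UMIs.

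The receptor chains were highest in different classes. Il6r, the chain specific to interleukin 6, was highest in myeloid leukocytes and alveolar fibroblasts, while Il6st and Lifr were highest in endothelium. There were exceptions: NK cell-like cells had no Il6r UMI in the HIR library and 2 in the sham library, cluster 1 had more Il6r (37.0 CPM) than B cell-like cells (34.9) and alveolar macrophage-like cells (20.1) in the HIR library, and adventitial fibroblast-like cells had 25.9 CPM there. In the HIR library Il6r was highest in alveolar fibroblast-like cells (124 CPM), interstitial macrophage-like cells (110), classical monocyte-like cells (82.8) and neutrophil-like cells (78.0), and each neighbouring pair overlapped in its intervals. In the sham library classical monocyte-like (138 CPM), interstitial macrophage-like (129), neutrophil-like (96.5) and nonclassical monocyte-like cells (84.4) led, again with overlapping neighbours. Alveolar fibroblast-like cells had 48.3 CPM there. The top rank among the classes was therefore held by a stromal class in the HIR library and by leukocytes in the sham library.

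Il6r was lower in HIR monocytes and higher in HIR alveolar fibroblasts and cluster 1. With 317 UMIs in the HIR library and 170 in the sham library, classical monocyte-like cells had a ratio of 0.600 (interval 0.497 to 0.727) for it. Nonclassical monocyte-like cells had 37.8 CPM in the HIR library and 84.4 CPM in the sham library, a ratio of 0.448 (0.309 to 0.636). The direction was opposite in alveolar fibroblast-like cells, which support the alveolar wall, with 124 CPM in the HIR library and 48.3 CPM in the sham library, a ratio of 2.57 (1.84 to 3.58). There 39.1% of HIR and 18.7% of sham cells were positive, and 12.6% and 4.80% after thinning. Cluster 1 had 37.0 and 22.4 CPM, a ratio of 1.66 (1.21 to 2.28). The intervals of the other 11 of 15 classes with a ratio held 1, neutrophil-like cells included (0.809, 0.612 to 1.08). Adventitial fibroblast-like cells, with 35 HIR and 39 sham UMIs, were also among these 11. Erythroid-like cells, the background class for Il6r, had no UMI in 46 HIR cells and 156 sham cells, at median depths of 9245 and 8700 UMIs.

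Il6st, the gene of the shared chain gp130, was higher in all 4 endothelium-like classes compared. These classes were not equally distinct. Cluster 14, the arterial class, scored 1.97 for arterial markers and 2.24 for general capillary markers. Cluster 16, part of the aerocyte class, scored 1.43 for aerocyte markers and 2.39 for general capillary markers. Both names rest on the weight that the ranking gave to markers among a cluster's leading genes. Venous endothelium-like cells, where leukocytes adhere and leave the blood, had 182 CPM (290 UMIs) in the HIR library and 73.1 CPM (95 UMIs) in the sham library, a ratio of 2.49 (1.97 to 3.17). General capillary endothelium-like cells, the main cells of the capillary bed, had 133 CPM (377 UMIs) and 44.9 CPM (158 UMIs), a ratio of 2.96 (2.45 to 3.59). Arterial endothelium-like cells had 120 and 39.5 CPM, a ratio of 3.04 (2.03 to 4.61) that reached 5.45 with no filter on cells. Aerocyte capillary endothelium-like cells, the large cells that face the airspace, had 64.5 and 32.7 CPM, a ratio of 1.97 (1.48 to 2.64). Cluster 16 held 94 of the 114 HIR UMIs of this class, with 89.7 and 43.0 CPM, a ratio of 2.08 (1.53 to 2.84). Cluster 8, the rest of the class, had 27.9 and 9.59 CPM, a ratio of 2.91 (1.23 to 7.63). In the HIR library the venous interval lay above that of the general capillary class, which overlapped the arterial one, and the aerocyte level was below all of them. Positive general capillary cells made up 24.05% of HIR and 11.02% of sham cells, and 11.9% and 4.84% after thinning. In the erythroid-like background class, 2 of 46 HIR cells and none of 156 sham cells had an Il6st UMI.

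The same direction was seen in fibroblasts but not in every class. Il6st had 57.0 CPM in the HIR library and 25.6 CPM in the sham library in adventitial fibroblast-like cells, which surround large vessels and airways, a ratio of 2.22 (1.57 to 3.16). Alveolar fibroblast-like cells had 58.6 and 27.7 CPM, a ratio of 2.12 (1.31 to 3.37). Smooth muscle or myofibroblast-like cells had 26.3 and 29.2 CPM, with an interval that held 1 (0.636 to 1.27). In alveolar macrophage-like cells the level was low, with 4.13 CPM in the HIR library and 7.05 CPM in the sham library, and the ratio of 0.585 turned to 3.47 after thinning. Neutrophil-like cells, the class with most Osm, had no Il6st UMI in 1276 HIR cells and 1 in 367 sham cells. Endothelium-like classes together held 65.4% of the HIR and 47.4% of the sham Il6st UMIs.

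Lifr, whose product pairs with gp130 for leukemia inhibitory factor and, in several species, oncostatin M, was an endothelial gene in both libraries. Endothelium-like classes held 80.0% of its HIR UMIs and 76.2% of its sham UMIs. General capillary endothelium-like cells had 177 CPM (503 UMIs) in the HIR library and 101 CPM (355 UMIs) in the sham library, a ratio of 1.76 (1.53 to 2.02). Venous cells had 111 and 63.9 CPM (ratio 1.74), arterial cells 109 and 74.9 CPM (1.46) and aerocytes 105 and 65.7 CPM (1.59), with intervals of 1.33 to 2.28, 1.03 to 2.05 and 1.29 to 1.97, and the arterial ratio was 2.88 with no filter on cells. The levels of these last 3 classes overlapped within each library. Positive general capillary cells made up 32.4% of HIR and 22.0% of sham cells, against 3 of 1276 HIR and none of 367 sham neutrophil-like cells, the background class for Lifr.

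Il6st and Lifr are thus both among the genes whose interval lay above 1 in all 4 endothelium-like classes. The arterial class and part of the aerocyte class scored higher for general capillary markers, so the 4 classes may not be separate cell types. Of 6578 genes with a ratio in all 4, that held for 140, or 2.13%. Summed neutrophil markers were also higher in HIR endothelium-like cells (1109 and 58.8 CPM in general capillary cells, 1050 and 62.3 CPM in venous cells). Neutrophil-like cells had no Il6st UMI in the HIR library and 1 in the sham library, and 3 and no Lifr UMIs. Outside the endothelium, Lifr in adventitial fibroblast-like cells had 28.9 CPM in the HIR library and 11.6 CPM in the sham library, a ratio of 2.49 (1.50 to 4.21). In alveolar type 2 epithelium-like cells Lifr went the other way, with 23 HIR and 60 sham UMIs. The ratio there was 0.485, the lowest of the 11 classes with a Lifr ratio, and its interval lay below 1. In alveolar type 1 epithelium-like cells it had 37.9 and 10.7 CPM, a ratio of 3.55 (1.86 to 7.48) that was 1.39 with doublets kept and 10.4 with no filter on cells. Of the 63 HIR UMIs there, 60 lay in cluster 27, where the ratio was 1.97 (1.02 to 4.15). General capillary markers in this class summed to 1652 CPM in the HIR library and 965 CPM in the sham library, and their part was not tested.

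**Figure D3:**
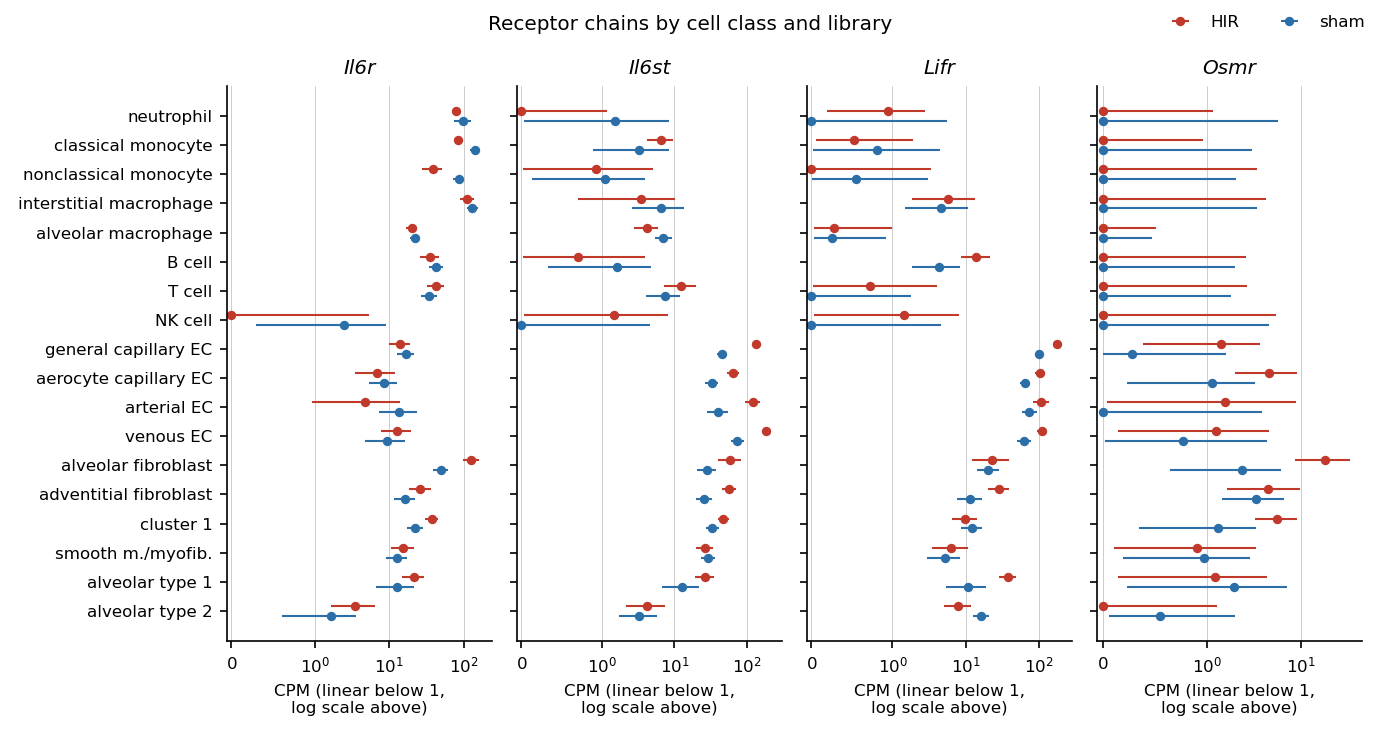
Levels of 4 receptor chains (CPM, linear below 1 and logarithmic above) in the 18 cell classes, HIR above sham; points are the class level and lines the 95% counting interval. Il6r is highest in alveolar fibroblasts in the HIR library and in classical monocytes in the sham library, Il6st and Lifr are highest in endothelium (EC), and Osmr stays under 20 CPM in every class.

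Osmr, a receptor chain for oncostatin M, was scarce. It had 51 UMIs in the HIR library and 28 in the sham library, 1.24 and 0.605 CPM, a ratio of 2.04 (1.26 to 3.37). Its UMIs lay in fibroblast-like classes and cluster 1 (62.7% of the HIR and 57.1% of the sham UMIs) and in endothelium (29.4% and 17.9%). Cluster 1 had 16 HIR and 4 sham UMIs, a ratio of 4.31 (1.39 to 17.7), and alveolar fibroblast-like cells 10 and 4 UMIs. No UMI was found in B cell-like cells, its background class, or in any other leukocyte class with at least 100 cells. The class with most Osm and the classes with any Osmr were therefore distinct in both libraries.

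Stat3, the transcription factor downstream of gp130, had a ratio above 1 in all 18 classes, with an interval above 1 in 14. Under other settings run, the ratio was below 1 in 4 single cases, at 0.923 to 0.997, in interstitial and alveolar macrophage-like, smooth muscle or myofibroblast-like and alveolar type 2 epithelium-like cells. Ratios ran from 1.02 to 3.73 with a median of 1.48. Among 3485 genes with a ratio in all 18 classes, 10 were above 1 in every class (0.287%), and 17 had an interval above 1 in at least 14 (0.488%). The other 9 genes above 1 in every class, named after their values were seen, were Cdkn1a, Cstb, Eif4ebp3, Gmpr2, LOC100909712, Napsa, Psme4, S100a8 and S100a9. S100a8 and S100a9 had the highest levels of the neutrophil list and Napsa is an alveolar type 2 marker. Stat3 itself had 240 CPM in HIR and 99.5 CPM in sham neutrophil-like cells.

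The largest Stat3 ratio was in alveolar fibroblast-like cells, with 296 CPM (167 UMIs) in the HIR library and 79.5 CPM (135 UMIs) in the sham library, a ratio of 3.73 (2.95 to 4.71). Positive cells there made up 62.5% of HIR and 28.3% of sham cells, and 29.4% and 8.71% after thinning. Neutrophil-like cells had a ratio of 2.42 (1.87 to 3.16), which was 2.61 within cluster 4, 3.004 within cluster 5 and 2.82 with the median ratio of all genes set to 1. T cell-like cells had 118 and 51.3 CPM, a ratio of 2.29 (1.78 to 2.96), the 7th highest log2 ratio of 4617 genes in that class. Cluster 1 had 177 and 86.5 CPM, a ratio of 2.05 (1.76 to 2.38). In the erythroid-like background class, 6 of 46 HIR and 1 of 156 sham cells were positive, and none was after thinning.

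In the other classes Stat3 differed by less than 2-fold. Classical monocyte-like cells had 181 CPM in the HIR library and 104 CPM in the sham library, a ratio of 1.74 (1.44 to 2.12). The endothelium-like classes, which led in Il6st, had Stat3 ratios of 1.39 in general capillary and venous cells, 1.57 in arterial cells and 1.17 in aerocytes. Interstitial macrophage-like cells (1.02), alveolar type 2 epithelium-like cells (1.02), smooth muscle or myofibroblast-like cells (1.11) and NK cell-like cells (1.33) had intervals that held 1. In alveolar macrophage-like cells the ratio was 1.19 (1.06 to 1.35), and 0.997 after thinning.

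Socs3, the feedback inhibitor that STAT3 induces, did not follow Stat3. General capillary endothelium-like cells had 14.1 CPM (40 UMIs) in the HIR library and 14.2 CPM (50 UMIs) in the sham library, a ratio of 0.992 (0.638 to 1.53). Over the 12 classes with a ratio, the values ran from 0.657 to 3.95 with a median of 1.03, and 11 intervals held 1. The exception was interstitial macrophage-like cells, with 16 HIR and 5 sham UMIs, a ratio of 3.95 (1.38 to 13.8). These rest on few UMIs: over all kept cells Socs3 had 333 in the HIR library and 294 in the sham library. In the background class, erythroid-like cells, it had none.

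**Figure D4:**
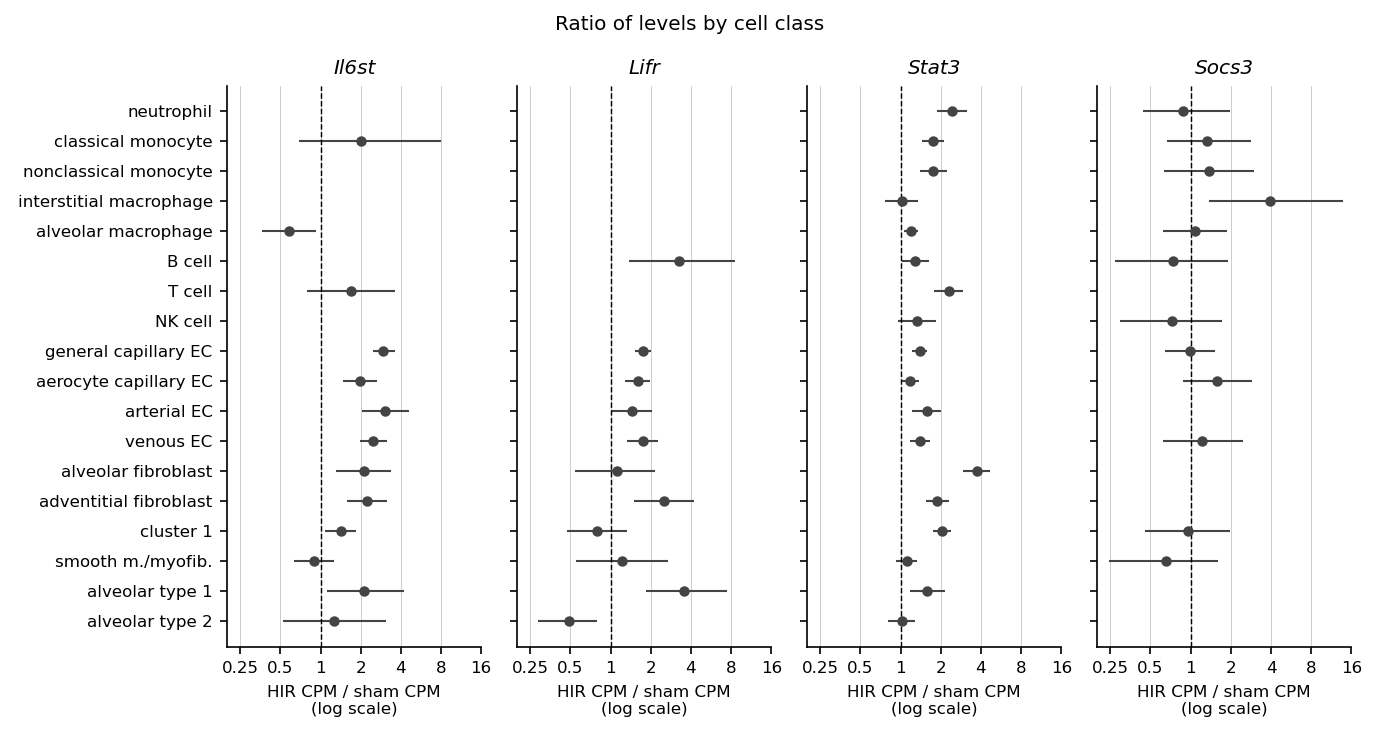
Ratio of HIR to sham CPM (log scale) for Il6st, Lifr, Stat3 and Socs3 in each cell class with at least 20 UMIs of the gene; lines are 95% counting intervals and the dashed line marks 1. Stat3 is above 1 in all 18 classes, Il6st and Lifr in the endothelium (EC), and 11 of 12 Socs3 intervals hold 1.

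The count of members past 2-fold was read against all genes with at least 20 CPM in either library in the same class. In alveolar fibroblast-like cells 3 of 4 measured members (Il6r, Il6st and Stat3) were over 2-fold higher in the HIR library, where 8.75% of all genes were. In neutrophil-like cells 2 of 4 were (Il6 and Stat3), against 5.52% of genes, and in adventitial fibroblast-like cells 2 of 4 (Il6st and Lifr), against 4.57%. In alveolar type 1 epithelium-like cells 2 of 4 were (Il6st and Lifr), against 8.69%. In classical monocyte-like cells 1 of 4 was (Il6), against 5.16%. Il6 passed the minimum in both the classical monocyte-like and the neutrophil-like class only through the HIR library (5.68 and 1.53 CPM in the sham library), so its counts there are no support. Stat3 was 1 of 3 in cluster 1 (2.25% of genes) and in T cell-like cells (0.975%). Osm was 1 of 3 in B cell-like cells (0.874%), with a ratio of 2.29 (1.31 to 4.13). Like Il6, Osm there passed the minimum only through the HIR library. So did Lifr in adventitial fibroblast-like cells and Il6st and Lifr in alveolar type 1 epithelium-like cells. These counts are no support either. In endothelium Il6st was the 1 of 3 measured members past 2-fold in general capillary (1.96% of genes), arterial (3.99%) and venous cells (2.88%), and none of 3 was in aerocytes (1.54%). None was higher by 2-fold in nonclassical monocyte-like (4.9%), interstitial macrophage-like (2.71%) and alveolar macrophage-like cells (0.31%), with 3 members measured in each, and Il6r was over 2-fold lower in the first of these. None was in NK cell-like (3.16%) and smooth muscle or myofibroblast-like cells (1.58%), with 2 measured, or in alveolar type 2 epithelium-like cells (1.73%), with 1. With so few members a class, these shares are descriptions.

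Genes that STAT3 is known to induce had list medians above 0 in HIR endothelium, by an amount that depended on the minimum level. Of 16 listed genes, 13 were in the feature table. In venous endothelium-like cells all 9 measured genes had the higher level in the HIR library and 5 were over 2-fold higher, with a median log2 ratio of 1.32 against -0.04 for all genes. Cebpd, an acute phase transcription factor, had 1277 CPM in the HIR library and 242 CPM in the sham library there (ratio 5.29). The growth regulator Myc had 128 and 35.4 CPM (3.63), and Lcn2, an iron-binding acute phase protein that neutrophils also carry, 142 and 20.8 CPM (6.85). Neutrophil-like cells had 1218 and 637 CPM of Lcn2, and the part of neutrophil RNA in the venous value was not tested. The list medians were 0.69 in general capillary (7 genes, 6 higher), 0.72 in aerocyte (7 genes, 6 higher) and 0.71 in arterial cells (8 genes, 6 higher), where all genes had -0.02, 0.00 and -0.02. Of all genes measured, 44.7% had the higher level in the HIR library in venous, 47.6% in general capillary, 50.1% in aerocyte and 47.5% in arterial cells. With no minimum on the level, over all 13 genes, the list medians were 0.57 in venous, 0.54 in general capillary, 0.33 in aerocyte and 0.41 in arterial cells.

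Cebpd accounted for many of the 2-fold values. It was over 2-fold higher in the HIR library in 10 classes in which it could be named, with ratios of 3.54 in general capillary, 2.99 in aerocyte and 3.42 in arterial endothelium. In stroma its ratios were 4.07 in alveolar fibroblast-like cells, 3.42 in adventitial fibroblast-like cells, 3.03 in cluster 1 and 2.73 in smooth muscle or myofibroblast-like cells. Alveolar type 1 epithelium-like cells had 379 CPM in the HIR library and 53.3 CPM in the sham library, a ratio of 7.11 (5.39 to 9.54). General capillary markers summed to 1652 and 965 CPM in this class, and general capillary cells had 1232 and 348 CPM of Cebpd. Cluster 27 made up 29.6% of the HIR and 17.0% of the sham cells of the class. The part of either in the Cebpd ratio was not tested. Interstitial macrophage-like cells had 349 CPM of Cebpd in the HIR library and 135 CPM in the sham library, a ratio of 2.60. The list's other values over 2-fold included Bcl3, a co-regulator of NF-kB: neutrophil-like cells had 145 CPM in the HIR library and 55.1 CPM in the sham library (2.64), classical monocyte-like cells 125 and 46.3 CPM (2.70) and nonclassical monocyte-like cells 100.5 and 44.9 CPM (2.24). Timp1, a metalloproteinase inhibitor, was 4.05-fold higher in classical monocyte-like cells. Il4r, an interleukin 4 receptor chain, went the other way in adventitial fibroblast-like cells, with 36.3 CPM in the HIR library and 127 CPM in the sham library.

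The list median was near that of all genes in B cell-like (-0.03 against 0.01 for all genes), T cell-like (0.03 against 0.05) and alveolar macrophage-like cells (0.06 against 0.02). In neutrophil-like cells it was 0.38 against -0.30, in classical monocyte-like cells 0.42 against -0.04 and in interstitial macrophage-like cells 0.77 against 0.02 (0.64 with no minimum). Alveolar type 1 epithelium-like cells had 0.51 against 0.07, NK cell-like cells 0.48 against -0.05 and adventitial fibroblast-like cells 0.48 against -0.02. Alveolar fibroblast-like cells had 0.40 against 0.09, cluster 1 had 0.38 against 0.02 and alveolar type 2 epithelium-like cells 0.32 against 0.05. Smooth muscle or myofibroblast-like cells had 0.13 against 0.03 and nonclassical monocyte-like cells 0.10 against -0.05. Higher list medians were thus not particular to endothelium. T cell-like cells thus combined a Stat3 ratio of 2.29 with a list median near that of all genes at the minimum of 20 CPM (6 genes). With no minimum their list median was 0.18. Immediate early genes, which enzymatic digestion can induce, had medians of 0.30 in general capillary, 0.33 in aerocyte, 0.42 in arterial and 0.21 in venous cells. Their medians were 0.42 in interstitial macrophage-like, 0.38 in cluster 1, 0.37 in adventitial fibroblast-like and 0.32 and 0.28 in alveolar type 1 and type 2 cells. NK cell-like cells had 0.21, classical monocyte-like and alveolar fibroblast-like cells 0.19, alveolar macrophage-like cells 0.15 and nonclassical monocyte-like cells 0.06. Values below 0 were -0.04 in neutrophil-like, -0.08 in B cell-like, -0.23 in smooth muscle or myofibroblast-like and -0.30 in T cell-like cells. With no minimum the STAT3-induced medians in aerocyte and arterial cells (0.33 and 0.41) were thus beside those of the immediate early genes, and the difference between the lists was not tested. The part of digestion in either list was not tested.

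**Figure D5:**
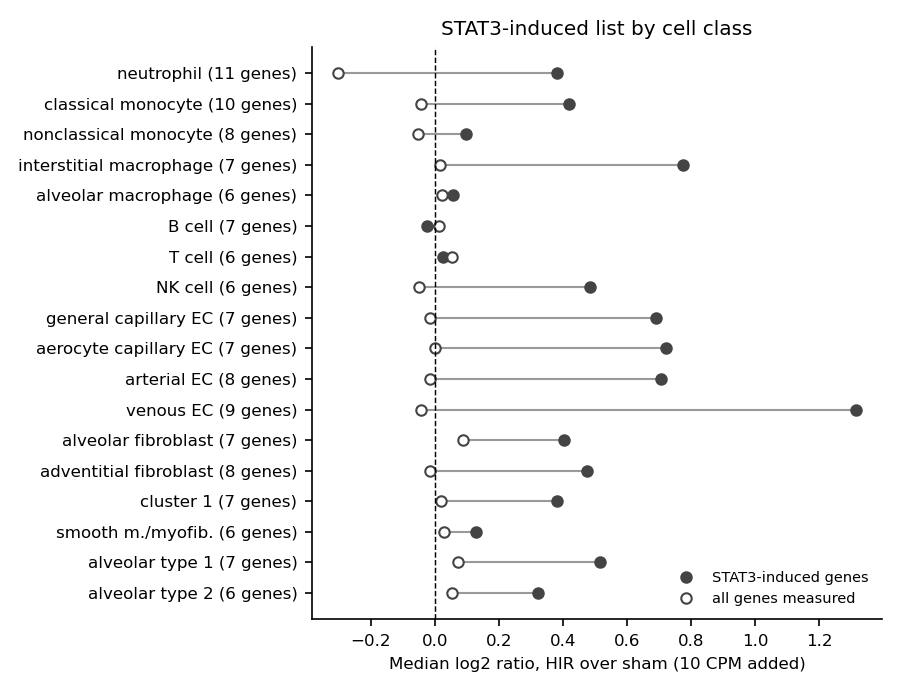
Median log2 ratio of HIR over sham levels, with 10 CPM added, for the STAT3-induced genes measured in each cell class (filled) and for all genes measured (open). Venous endothelium (EC) is at 1.32 with the minimum of 20 CPM used here and 0.57 without it, and the B cell, T cell and alveolar macrophage values lie beside those of all genes.

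Few other pathway genes were past 2-fold. Among the listed kinases and STATs, none with at least 100 CPM was over 2-fold apart in any class. Among inhibitors, Socs1, which blocks interferon and cytokine receptors, had 141 CPM in HIR and 59.5 CPM in sham NK cell-like cells (ratio 2.36), and the phosphatase gene Ptpn2 had 109 and 53.1 CPM in nonclassical monocyte-like cells (2.05). In the same cells Adam17, the protease that sheds the interleukin 6 receptor, had 104 CPM in the HIR library and 47.1 CPM in the sham library (2.21), while Il6r was lower there. Adam10 and Adam17 were the whole shedding list, and neither was over 2-fold apart in another class at 100 CPM. At 20 CPM 1 was over 2-fold lower in interstitial macrophage-like cells. None of the 4 other receptors listed was past 2-fold at 100 CPM. At 20 CPM, 1 of 2 measured was higher in alveolar fibroblast-like cells (8.75% of all genes). Inhibitors at 20 CPM had 1 of 4 higher in alveolar type 2 (1.73%) and 1 of 6 in alveolar type 1 epithelium-like cells (8.69%). In adventitial fibroblast-like and classical monocyte-like cells 1 inhibitor was over 2-fold lower.

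Across the 36 sums of class and library, the genes whose levels were most like each member's were found by Pearson's r on log2 CPM, among about 2825 genes; the sums share libraries, so r is a description. Osm was most like Alox5ap (0.92), Cklf and Lst1 (both 0.91), and Lifr most like Ephb4, Kank3 and Tspan7 (all 0.94). Il6st was most like Tcim (0.91), Plpp1 and Zfp503 (both 0.90). The likeness was weaker for Stat3, with Map3k3 at 0.77, and for Il6r, with AABR07029605.1 at 0.79, Ccl2 at 0.78 and Dusp1 at 0.76. Il6 was most like LOC24906 and Slpi (both 0.72) and Fcnb (0.70), and Socs3 most like Sipa1 and Rgs3 (both 0.75).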

How the data were processed

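The deposited matrices hold a count of UMIs per gene and barcode. The submitters' processing notes name Cell Ranger 6.0, STAR, Seurat 4.0 and the mm10 build, while cellranger 5.0.0 is the writer per the file headers and all identifiers are those of the rat. Whether the counting used strand is not given in the sources used here. A barcode was kept if it had 200 genes or more and no more than 20% mitochondrial UMIs (8593 HIR and 9438 sham), and the barcodes with the highest Scrublet scores (scanpy 1.11.5) were left out at 0.8% per 1000 barcodes (672 HIR and 867 sham of those past the filter). Median depth before filtering was 3094 UMIs in the HIR library and 3426 in the sham library, and no barcode had fewer than 500.

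Cells of both libraries were clustered together by the Leiden method (leidenalg 0.10.2, resolution 1.0) on 30 principal components of 2000 variable genes, without the members and pathway lists, on a shared-neighbour graph of 15 neighbours. A cluster was named where its best-ranked marker list had 3 or more genes past 2-fold relative to the remaining clusters and a mean log2 fold of 0.8 or more. The ranking added 0.5 per marker found in the cluster's top 10. A cluster whose median depth was over 3-fold below that of its libraries also needed a marker of that list in its top 10. Of 199 markers, 193 were in the feature table; others, among them Ackr1, Foxj1, Ccr2, Cd36 and Mcpt8, and from the pathway lists Il31, Mcl1, Saa3 and Serpina3n, were not analysed here. The members, lists and naming rule were chosen with earlier results of these data known.

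UMIs were summed per class and library and given as CPM with exact Poisson intervals. Ratios, made for at least 20 UMIs, carry exact conditional intervals and shares exact (Clopper-Pearson) binomial ones (scipy 1.17.1). They cover counting error only. The check on simulated data drew counts from the model the intervals assume. It could not show how the intervals hold where UMIs are uneven between cells. Lists were summarized over genes with at least 20 CPM in either library, with 10 CPM added before logs. Named genes are the members, up to 3 genes per list, class and direction over 2-fold apart with at least 100 CPM and 50 UMIs, and for each member with at least 500 UMIs the 3 genes most like it. Levels at sham class shares and values within clusters were added after the data were seen. Some results are not reported here.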

Additional observations from a re-analysis of the deposited data

How the results depend on the processing

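For 65 results, 63 of them member ratios with at least 50 UMIs, 13 alternative settings gave 656 values: 612 stayed within the counting interval of the reported value, 36 moved out of it, and 8 changed the direction of a value whose interval had left out 1. The ratio of Il6 in classical monocyte-like cells, of Lifr and Socs3 in general capillary cells and of Il6r in classical monocyte-like cells stayed within their intervals under every setting run. Il6st in general capillary cells was 3.71 under the stricter filter on cells. The STAT3-induced median in general capillary cells was 0.54 with no minimum on the level. Osm in neutrophil-like cells was 0.967 under the stricter filter, 0.981 with doublets kept, 0.834 as a mean over cells and 1.04 with the median ratio of all genes set to 1. Osm in nonclassical monocyte-like cells was 0.983 with no filter, 0.757 with doublets kept, 0.809 with each cell assigned alone and 0.991 with clusters made on marker genes. Thinning to 1000 UMIs gave 3.47 for Il6st and 0.997 for Stat3 in alveolar macrophage-like cells on few UMIs per cell. Lifr in alveolar type 2 epithelium-like cells, at 0.485 as reported, was 1.05 with doublets kept. The cause of these changes was not tested. No paired analysis was possible because each group has 1 library, so the shared replicate number pairs nothing that could be fitted.

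Depth limits what can be said of Osmr, Lif and Socs3, and of Il6 outside classical monocyte-like cells. With 1 library per group no interval holds the spread between animals, and a difference between libraries cannot be told apart from one between animals or preparations.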

Other observations

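Within the HIR library, the 93 classical monocyte-like cells with an Il6 UMI were set beside the 256 without one, as values with no test. Median depths were 11225 and 10400 UMIs. Osm had 297 CPM in the positive cells and 286 CPM in the negative ones, Il6r 83.4 and 82.6 CPM, and Stat3 162 and 188 CPM. The immediate early gene Egr1 had 197 and 270 CPM, and Fos 1222 and 1318 CPM. S100a8 had 19343 and 15579 CPM and the neutrophil collagenase gene Mmp8 60.7 and 30.3 CPM. Among other neutrophil markers, Il1r2 had 129 and 159 CPM and Csf3r 97.6 and 96.3 CPM. The monocyte markers Vcan and Plac8 had 1822 and 8018 CPM in the positive cells and 1692 and 8654 CPM in the negative ones.

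Plasmacytoid dendritic cell-like cells, 51 in the HIR library and 60 in the sham library and so under the minimum for a ratio, had a high Stat3 level, with 203 CPM in the HIR library and 129 CPM in the sham library. Their Il6r level was 65.8 and 66.6 CPM.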
